A study of Mus musculus with 12 samples.

Results

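Distal PRDM16-only regions were stretches of at least 20 bases on chromosomes 1 to 19 that carried a peak in both PRDM16 CUT&RUN libraries and overlapped no peak of the PRDM3 library, of any NKX2-1 library or of any H3K4me3 library. There were 8324 of them among 38668 PRDM16 regions, or 21.5% (Wilson 95% interval 21.1% to 21.9%, counting error only). Of the 23044 PRDM16 regions that lay outside H3K4me3, they made up 36.1%. The other distal PRDM16 regions were 2047 with PRDM3 only, 5859 with NKX2-1 only and 6814 with both, and 15624 further regions lay over H3K4me3. The members were thus chosen from the presence of peaks in all 9 lists. Their strength in the PRDM16 libraries comes from the same lists, so it is given as a description, with no test.

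PRDM16 and PRDM3 belong to the PR domain family of zinc-finger proteins, and Mecom is the gene of PRDM3. PRDM16 is best known for its part in brown fat identity, and also acts in blood stem cells, the heart and the developing palate. It binds DNA through its zinc fingers or is carried there by other factors such as C/EBP-beta, and it recruits corepressors such as the CTBP proteins. NKX2-1 is the homeodomain factor that specifies lung epithelium, and H3K4me3 marks promoters of active genes. A PRDM16 peak that lies away from H3K4me3 is called distal here, whatever its distance from a gene.

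The series profiled EpCAM+ lung epithelial cells of wild-type C57Bl6 mouse fetuses at E17.5 by CUT&RUN, in which an antibody tethers a nuclease that releases the bound chromatin. Lungs were pooled, cells were selected on magnetic beads, and each reaction held 100000 cells. The 2 PRDM16 libraries differed in their antibody, raised in rabbit for replicate 1 and in sheep for replicate 2, so replicate and antibody cannot be told apart. The other lists came from 1 PRDM3, 3 NKX2-1 and 3 H3K4me3 libraries. All groups were wild type, and no allele or treatment separated them. Nothing in the labels tells whether replicates were separate pools of fetuses, and the 3 IgG samples were not analysed here.

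On chromosomes 1 to 19 the PRDM16 lists held 108677 peaks with the rabbit antibody and 77421 with the sheep antibody, against 51128 for PRDM3, 51586 to 76036 for NKX2-1 and 14146 to 18538 for H3K4me3. A q value under 0.05 was reached by 44.9% (rabbit) and 45.1% (sheep) of PRDM16 peaks, by 42.6% of PRDM3 peaks and by 76.4%, 11.0% and 13.2% of NKX2-1 peaks. The NKX2-1 libraries also differed in strong peaks, of which 12708, 661 and 1170 had a −log10 q of 5 or more. Read depth is unknown from peak lists, so the absence of an NKX2-1 or PRDM3 peak means that none was called, not that the protein was absent. As a check on the cells, H3K4me3 lay at a gene end in 21 of 24 genes of alveolar type 1 (AT1) cells, 18 of 22 of alveolar type 2 (AT2) cells and 18 of 20 of epithelial junctions and keratins. It did so in 13 of 18 ciliated, 2 of 15 airway secretory and 4 of 15 neuroendocrine genes of the airway epithelium. Among other cell types it did so in 6 of 20 mesenchymal, 4 of 17 endothelial, 7 of 19 immune and blood and 0 of 18 liver genes, beside 57.2% of all 20665 protein-coding genes.

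Sequence could be shown only where a member reached into a RefSeq promoter window, which runs from 250 bases before to 50 bases after an annotated gene start. Such windows lay under 144 members (1.73%), and the 3 with the best ranks of fold enrichment in the 2 libraries are printed 5′ to 3′ on the gene's strand (RefSeq, GRCm38.p6). Capitals mark the bases that lie inside the member. The first is the promoter of the long noncoding RNA gene Gm15910 (chr10:120857379-120857678, plus strand), inside the span of Msrb3, a methionine sulfoxide reductase gene, where 74 bases were shared. The second is that of the long noncoding RNA gene Gm52397 (chr19:37985836-37986135, plus strand), with 245 bases shared. The third is a window of Map2k4, which encodes a kinase of the JNK pathway (chr11:65745807-65746106, minus strand), and all 300 of its bases lay in the member.
Gm15910: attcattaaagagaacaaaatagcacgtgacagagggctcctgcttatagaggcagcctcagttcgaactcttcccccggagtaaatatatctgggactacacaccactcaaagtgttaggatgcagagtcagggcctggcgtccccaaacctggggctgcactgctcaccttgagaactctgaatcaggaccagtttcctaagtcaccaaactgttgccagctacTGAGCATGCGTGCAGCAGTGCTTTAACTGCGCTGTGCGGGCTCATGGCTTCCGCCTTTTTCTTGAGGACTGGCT
Gm52397: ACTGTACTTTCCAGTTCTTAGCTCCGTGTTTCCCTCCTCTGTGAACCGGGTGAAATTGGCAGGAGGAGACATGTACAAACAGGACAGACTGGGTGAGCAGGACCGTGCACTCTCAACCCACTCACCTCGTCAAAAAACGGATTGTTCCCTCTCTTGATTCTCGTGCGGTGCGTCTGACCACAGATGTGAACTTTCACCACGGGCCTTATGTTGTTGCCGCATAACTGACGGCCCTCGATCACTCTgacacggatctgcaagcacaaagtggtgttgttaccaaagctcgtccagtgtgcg
Map2k4: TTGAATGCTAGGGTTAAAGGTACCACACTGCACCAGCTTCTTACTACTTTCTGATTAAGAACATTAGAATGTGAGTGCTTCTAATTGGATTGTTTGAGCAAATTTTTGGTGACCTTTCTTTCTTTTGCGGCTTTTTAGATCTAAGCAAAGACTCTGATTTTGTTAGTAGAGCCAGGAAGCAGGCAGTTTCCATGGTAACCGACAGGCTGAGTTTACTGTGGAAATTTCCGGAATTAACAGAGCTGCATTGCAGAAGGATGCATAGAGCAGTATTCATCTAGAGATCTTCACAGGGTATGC

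The member over the Gm15910 window (chr10:120857605-120857882) had a fold enrichment of 11.9 with the rabbit and 6.46 with the sheep antibody, and the summits of the 2 libraries lay 133 bases apart. At Gm52397 (chr19:37985359-37986080) the values were 5.43 and 6.23, with summits 291 bases apart. At Map2k4 (chr11:65745661-65746366) they were 5.45 and 5.92, with summits 140 bases apart. The Map2k4 gene carried H3K4me3 at an end of its span, whereas Gm15910 and Gm52397 did not. The Map2k4 window lies inside the span of 65688244 to 65788359, so it belongs to an internal start. Of the motifs listed next, the Gm15910 window held AP-1, outside the bases shared with the member, the Gm52397 window NFI and the Map2k4 window C/EBP and ETS.

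The 144 members over promoter windows had median fold enrichments of 3.58 (rabbit) and 3.36 (sheep), and 49 of them had a q under 0.05 in both libraries. Their windows were close to all promoter windows in base composition and poorer in GC than windows under H3K4me3, a mark that the rule keeps out of the members. Over 153 windows of 145 genes the median GC content was 52.7% and the median number of CpG dinucleotides was 6.0. The 12848 windows under H3K4me3 in at least 2 libraries had medians of 62.7% and 23.0, and all 31365 windows had 53.0% and 7.0. Short motifs were counted as exact letters on both strands. The TEAD motif GGAATG was in 25.5% of member windows, against 11.3% of H3K4me3 windows and 14.6% of all windows. The NFI motif TTGGCA was in 20.9%, against 9.67% and 14.1%, and the NKX2-1 core CAAGTG in 17.6%, against 9.88% and 13.5%. The GRHL motif AACCNGTT was in 6.54%, against 1.57% and 2.08%. The C/EBP motif TTGCNNAA was in 12.4%, against 7.35% and 10.9%, and the AP-1 motif TGANTCA in 9.80%, against 4.06% and 7.85%. The FOX motif TGTTTAC was in 4.58%, against 2.38% and 3.71%. The GATA motif AGATAA was in 5.88%, against 4.98% and 11.2%, and the ETS motif CCGGAA in 7.84%, against 29.1% and 15.1%. All windows include the 12848 under H3K4me3, a mark that members avoid by the rule, although the rest of a member's window can lie under it. Shares in windows free of H3K4me3 were not counted, so a higher or lower share is not read as a trait of members. These motifs were chosen after earlier results were known, base composition differs between the sets, and a match is no evidence of binding.

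Distal PRDM16-only regions were the weakest class of PRDM16 region in both libraries. Their median fold enrichment, the ratio of signal to background given by the authors' peak caller, was 3.50 with the rabbit antibody (interquartile range 2.80 to 4.30) and 3.12 with the sheep antibody (2.80 to 3.89). The mean of the library medians was 3.31 ± 0.273 (SD, n = 2 libraries). Regions with PRDM3 only had medians of 4.30 and 3.89, regions with NKX2-1 only 4.20 and 3.89, and regions with both 5.73 and 5.38. Over all PRDM16 regions other than the members the medians were 5.68 and 4.56. The interquartile range of members overlapped those of regions with 1 other factor, and ended at the values where that of regions with both began.

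**Figure D1:**
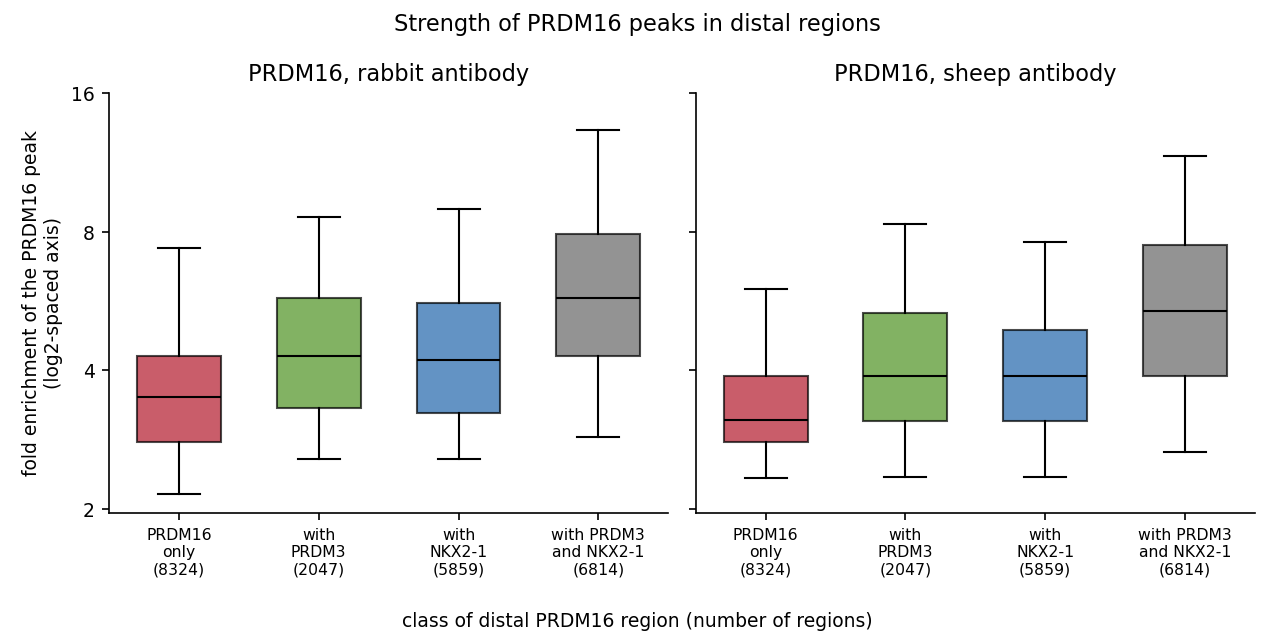
Fold enrichment of the PRDM16 peak (log2-spaced axis) in the classes of distal PRDM16 region, with the rabbit antibody (left) and the sheep antibody (right). Boxes span the interquartile range with the median as a line, and whiskers run from the 5th to the 95th percentile. The members' medians of 3.50 and 3.12 are the lowest in both panels. The members' boxes overlap those of regions with PRDM3 only or NKX2-1 only, and end at 4.30 and 3.89, where the boxes of regions with both begin.

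Confidence was lowest in members as well. The median −log10 q of members was 1.84 with the rabbit and 1.28 with the sheep antibody, against 5.24 and 3.43 in the other PRDM16 regions. A q under 0.05 in both libraries was reached by 2422 members, or 29.1% (28.1% to 30.1%), where 62.9% of all PRDM16 regions reached it. The share was 55.6% of regions with PRDM3 only, 51.9% with NKX2-1 only and 82.3% with both. With 1 antibody at a time the shares were 58.2% (4843 members) for rabbit and 45.8% (3811 members) for sheep. In 2092 members (25.1%) neither library reached it. At a −log10 q of at least 5 in both libraries there were 76 members (0.913%), where the share of all PRDM16 regions was 20.9%. Among the other distal classes it was 7.23% with PRDM3 only, 4.47% with NKX2-1 only and 33.0% with both. Since the rule itself used these peak lists, nothing is read from these differences.

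Few members stood high in either library. A fold enrichment of 8 or more was given to 314 members (3.77%) with the rabbit antibody and 92 (1.11%) with the sheep antibody, whereas 3391 (40.7%) and 2852 (34.3%) lay under 3. The shares at 8 or more were 6.99% and 5.32% with PRDM3 only, and 7.29% and 3.36% with NKX2-1 only. Among regions with PRDM3 and NKX2-1 they were 24.0% and 19.4%. The members' median was above 58.5% of all rabbit antibody peaks and above 44.5% of all sheep antibody peaks, so it sat near the middle of each list. Of the distinct peaks that made up the members, 461 of 8208 rabbit antibody peaks (5.62%) and 391 of 8244 sheep antibody peaks (4.74%) were in the strongest 10% of their list. Deposited fold enrichments came in steps. With the rabbit antibody the 4 commonest values, 2.87, 3.58, 2.15 and 2.80, took in 37.5% of members, and with the sheep antibody 3.12, 2.34, 3.89 and 2.96 took in 33.0%.

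The members just inside the thresholds resembled the stretches just outside them. The 257 members of 20 to 39 bases had median fold enrichments of 2.87 (rabbit) and 3.11 (sheep), and 260 shorter stretches of 1 to 19 bases over no other peak also had 2.87 and 3.11. The 828 members within 100 bases of an excluding peak had 3.58 and 3.23, against 3.58 and 3.53 in 1440 distal regions that shared 1 to 99 bases with such a peak.

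Most PRDM16 peaks that lay clear of the other marks with 1 antibody were not found with the other. Of 64438 such rabbit antibody peaks 7027 (10.9%, 10.7% to 11.1%) were also covered by a sheep antibody peak. Of 39201 such sheep antibody peaks 7402 (18.9%, 18.5% to 19.3%) were covered by a rabbit antibody peak. For rabbit and sheep antibody peaks in turn, 49.4% and 61.3% of peaks with PRDM3 only were found again, 45.7% and 58.6% of those with NKX2-1 only, and 84.4% and 91.2% of those with both. The share was higher in stronger peaks. It was 6.30% under a fold enrichment of 3 and 47.5% (42.2% to 52.8%) at 8 or more for the rabbit antibody, and 12.2% and 67.4% (52.5% to 79.5%, 43 peaks) for the sheep antibody. Within every band of fold enrichment plotted, PRDM16-only peaks were found again least often, whichever antibody was taken first. Peaks of these classes differ in width, which was not matched.

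**Figure D2:**
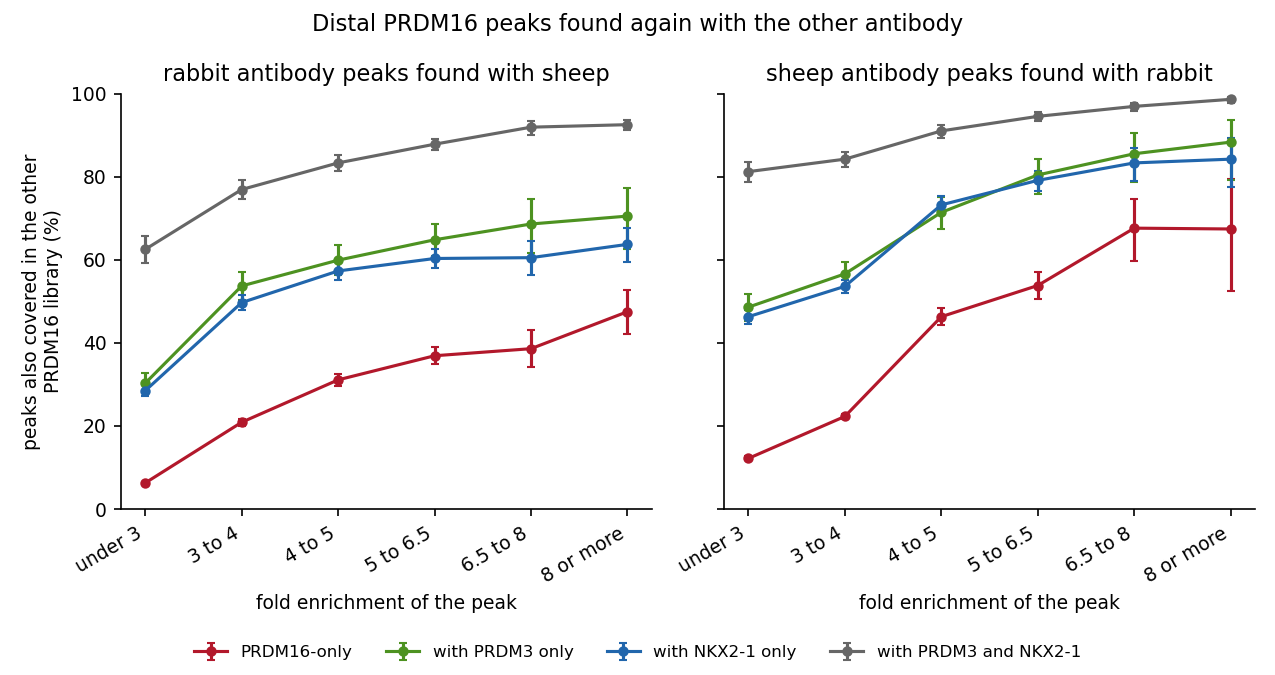
Percentage of distal PRDM16 peaks of 1 library that were also covered by a peak of the other, by fold enrichment of the peak, for rabbit antibody peaks (left) and sheep antibody peaks (right). Points are shares and bars Wilson 95% intervals over peaks. PRDM16-only peaks (red) lie lowest in every band, at 6.30% to 47.5% on the left, while peaks with PRDM3 and NKX2-1 (grey) lie highest.

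Members were narrow, and the 2 antibodies placed their summits loosely. Their median width was 244 bases (interquartile range 164 to 345, longest 1271), against 342 with PRDM3 only, 333 with NKX2-1 only and 614 with both. The summits of the 2 libraries lay a median of 179 bases apart (75 to 340), against 160, 160 and 114 bases. They were within 50 bases of each other in 1420 members (17.1%), against 21.6%, 20.3% and 29.2%. Fold enrichments of the 2 libraries were almost unrelated over the 8324 members, with a Spearman correlation of 0.09, against 0.10, 0.05 and 0.26. These correlations are across regions, which share libraries and are not replicates. Since 1 shared base excluded a stretch, wider stretches were more likely to be left out. Nothing is therefore read from the width of members.

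**Figure D3:**
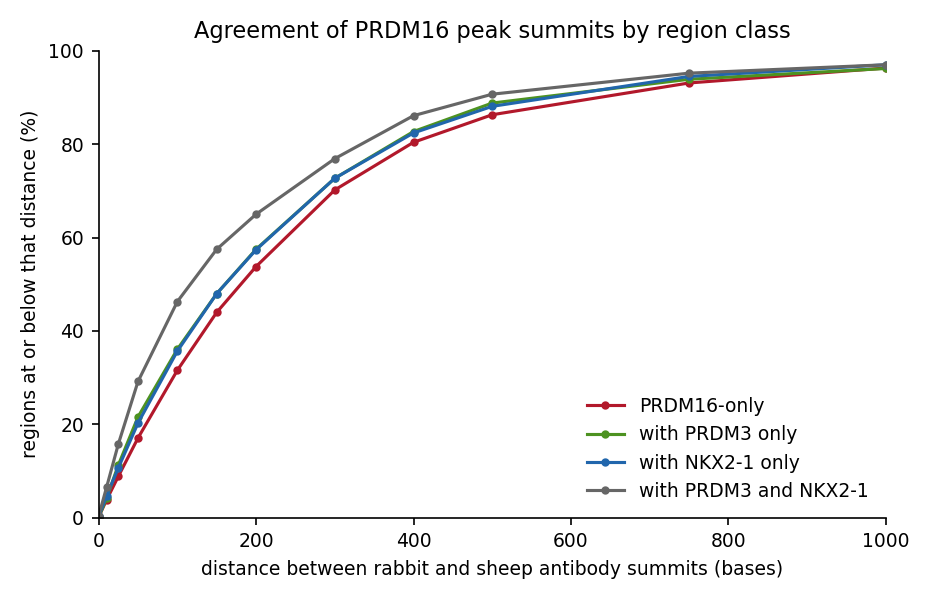
Cumulative percentage of regions by the distance in bases between the rabbit and the sheep antibody summits, for the classes of distal PRDM16 region. At or below 50 bases lie 17.1% of PRDM16-only regions (red), the lowest share there, and 29.2% of regions with PRDM3 and NKX2-1 (grey), the highest, and the curves meet near 1000 bases.

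A fold enrichment belongs to a whole peak, and the summit of that peak can lie outside the shared stretch. Both summits lay inside the stretch in 3658 members (43.9%), against 59.5%, 57.5% and 78.3% of the other distal classes. A narrower stretch is less likely to hold both summits, and width was not matched between classes. These 3658 members had median fold enrichments of 3.58 and 3.36, a summit distance of 72.0 bases and a Spearman correlation of 0.19, and 35.6% of them reached a q under 0.05 in both libraries. In 6382 members (76.7%) neither whole PRDM16 peak touched an excluding peak. In the others a flank of a PRDM16 peak lay over NKX2-1 (1530 members), PRDM3 (891) or H3K4me3 (290), and a member can have more than 1 of these.

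Many high values of single libraries belonged to such flanking peaks. Among the 314 members at a fold enrichment of 8 or more with the rabbit antibody, the rabbit summit was inside the stretch in 138 (43.9%) and over an excluding peak in 117 (37.3%). Among the 92 with the sheep antibody these were 31 (33.7%) and 49 (53.3%). In the 5 highest members of each library that library's summit lay outside the stretch and over an excluding peak. The highest with the rabbit antibody, 38.8 at chr15:101984634-101984896, lay 11814 bases from the keratin gene Krt8 and had 2.72 with the sheep antibody. The highest with the sheep antibody, 29.4 at chr10:69908993-69909307, was near Ank3, which encodes the membrane adaptor ankyrin-G, and had 2.80 with the rabbit antibody. Another, near the Notch effector gene Hes1 (chr16:30058140-30058346), had 15.2 with the sheep and 3.20 with the rabbit antibody. These were chosen after their values were seen.

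The 12 members with the best ranks in both libraries together were different ones, and all 12 had both summits inside the stretch. The first, chr8:27057902-27058471, had fold enrichments of 10.2 (rabbit) and 12.5 (sheep), and its summits were 3 bases apart. It lay 1769 bases from Plpbp, which encodes a pyridoxal phosphate binding protein, 18464 bases from Erlin2, a gene of endoplasmic reticulum protein turnover, and 27048 bases from Adgra2, an adhesion receptor gene. An NKX2-1 peak began 28 bases away and lay under the flank of a PRDM16 peak. The second, chr9:89826942-89827442, had 20.5 and 7.01 with summits 20 bases apart and no protein-coding gene within 50 kb. The nearest gene end was that of Rasgrf1, a Ras exchange factor gene, 82316 bases away.

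Among these 12 members, 3 had fatty acid desaturase or phospholipid synthesis genes within 50 kb. The fifth, chr19:10023120-10023455 with 12.2 and 7.0, was inside Rab3il1, which encodes a Rab exchange factor, and was 17399 bases from Fads3 and 39309 bases from Fads2, a pair of fatty acid desaturase genes. Best1, a chloride channel gene, and Fth1, the ferritin heavy chain gene, were also within 50 kb. The seventh, chr19:44363374-44363763 with 9.32 and 7.01, lay between Scd4, at 16630 bases, and Scd1, at 30686 bases, which encode stearoyl-CoA desaturases. The tenth, chr5:101726008-101726844 with 7.89 and 9.15, lay 38248 bases from Cds1, whose product makes CDP-diacylglycerol for phospholipid synthesis, and inside the predicted gene Gm42134. This grouping was made after the genes were seen and was not tested. The share of all members near such genes was not counted, so nothing is read from the 3 of 12.

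The other members of the 12 were near genes of varied function. The third, chr15:78437025-78437471 with 10.0 and 7.79, was inside Kctd17 and 2195 bases from Tmprss6, a protease gene of iron control. Mpst and Tst, which encode sulfurtransferases, Tex33 and the cytokine receptor gene Il2rb were also within 50 kb. The fourth, chr15:100766606-100767331 with 8.45 and 14.0, was inside the bicarbonate transporter gene Slc4a8 and 37229 bases from Galnt6, a mucin-type glycosylation gene. A PRDM3 peak lay 130 bases from it and under a flank of a PRDM16 peak. The sixth was the member at Msrb3 and Gm15910 whose promoter sequence is printed above. The eighth, chr6:50939062-50939310 with 14.3 and 6.23, had no gene within 50 kb. The ninth, chr2:153083182-153083811 with 7.88 and 11.7, was 1446 bases from Ccm2l and 22887 bases from Xkr7. The eleventh, chr5:110869222-110869650 with 7.89 and 8.29, was inside the checkpoint kinase gene Chek2, with Ttc28 and the iron-sulfur cluster co-chaperone gene Hscb nearby. The twelfth, chr19:53579104-53579531 with 8.60 and 7.0, was 20864 bases from the cohesin gene Smc3 and 37294 bases from Dusp5, a phosphatase gene of the ERK pathway.

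The 76 members at a −log10 q of at least 5 in both libraries were spread over 19 chromosomes. Their median fold enrichments were 6.45 and 6.23, their summits were a median of 72.0 bases apart, and 31 lay inside a gene span. A gene end was within 1 kb of 3 of them, and 14 had no protein-coding gene within 50 kb. The nearest gene carried H3K4me3 in 45 (59.2%), against 70.8% of all members.

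Members lay relative to genes much as other distal PRDM16 regions did. A gene span held 4479 of them (53.8%), against 52.8% with PRDM3 only, 54.7% with NKX2-1 only, 52.4% with both and 82.1% over H3K4me3. The median distance to the nearest gene end was 19.8 kb, against 24.5, 19.9 and 26.0 kb in the other distal classes. A gene end was within 1 kb of 431 members (5.18%), and 27.0% were more than 50 kb from any. The gene with the nearest end carried H3K4me3 for 70.8% of members, against 75%, 71.7% and 73.9%. Strand and exons were not in the gene table used, so exonic, intronic and untranslated positions are not given.

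Other peaks were close by. The nearest PRDM3 or NKX2-1 peak was a median of 1.62 kb away, within 1 kb for 3328 members and within 10 kb for 7685 (92.3%). These lists are long, with 51128 PRDM3 peaks and 51586 to 76036 peaks per NKX2-1 library. Other positions were not measured, so this closeness is not read as a trait of members. The nearest H3K4me3 peak was a median of 24.4 kb away. Another member lay within 10 kb of 2144 members (25.8%), and any other PRDM16 region within 10 kb of 5013 (60.2%). Over chromosomes, members made up from 19.2% of PRDM16 regions on chromosome 17 to 24.4% on chromosome 13, with 285 on chromosome 16 and 625 on chromosome 2.

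Within 50 kb of a member lay 8372 protein-coding genes, which is 40.5% of the 20665 on these chromosomes. Of these genes 4706 had 1 member, 3306 had 2 to 4, 360 had 5 or more and 28 had 10 or more. The linked members numbered 7226 (86.8%), and 1098 (13.2%) had no protein-coding gene within 50 kb. With members at a q under 0.05 in both libraries, 3599 genes (17.4%) were linked. The window includes the gene span, so long genes have wider windows. The share was 30.8% of genes under 10 kb, 41.0% of those of 10 to 30 kb, 46.0% of those of 30 to 100 kb and 58.4% of longer ones. H3K4me3 was at an end of 67.8% of genes with a member and of 50.0% of genes without, where all genes had 57.2%. Genes without a member include those with no PRDM16 region of any class, of which only 8.45% carried the mark. Genes with PRDM16 regions but no member were not counted apart, so the difference is not read as a trait of members. For 351 genes the members were the only PRDM16 regions within 50 kb. Of these 14.8% carried H3K4me3, against 8.45% of genes with no PRDM16 region at all.

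The 15 genes with the most members had 11 to 15 each. Atxn1, which encodes the transcriptional repressor ataxin-1, had 15 members among its 44 PRDM16 regions. Their fold enrichments ran from 2.69 to 8.40 with the rabbit antibody (median 3.58) and from 2.21 to 5.66 with the sheep antibody (median 3.89), and 6 of the 15 reached a q under 0.05 in both. Mical2, an actin-oxidising enzyme gene, also had 15, of 30 regions, with 2.72 to 18.4 (median 3.77) and 2.14 to 7.61 (median 2.96). Its 18.4, at chr7:112308748-112308976, had its rabbit antibody summit outside the stretch and 2.14 with the sheep antibody. Ablim1, which encodes an actin-binding LIM protein, had 14 of 37, and 7 of the 14 reached a q under 0.05 in both libraries.

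Genes with 13 members were Lpp, a focal adhesion gene (of 19 regions), Magi1, a tight junction scaffold gene (of 33), Stard13, a GTPase-activating protein gene (of 36), and Tcf7l1, a transcription factor gene of the Wnt pathway (of 27). Over the 15 genes, members at a q under 0.05 in both libraries numbered from 1 at Tcf7l1 to 7 at Ablim1. Erc2, an active zone scaffold gene, had 12 of 23, Nckap5 12 of 32, and the homologous recombination gene Rad51b 12 of 40. With 11 members followed the autophagy gene Atg7 (of 26), Ece1 (of 19), which encodes an endothelin-converting enzyme, the insulin-like growth factor receptor gene Igf1r (of 30), Nav2 (of 38) and Parva (of 22), a gene of integrin-linked adhesions. At each of these 15 genes except Rad51b, members were the most numerous of the classes, which follows in part from choosing genes by their members. At Rad51b, regions with PRDM3 and NKX2-1 were more numerous, at 15.

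**Figure D4:**
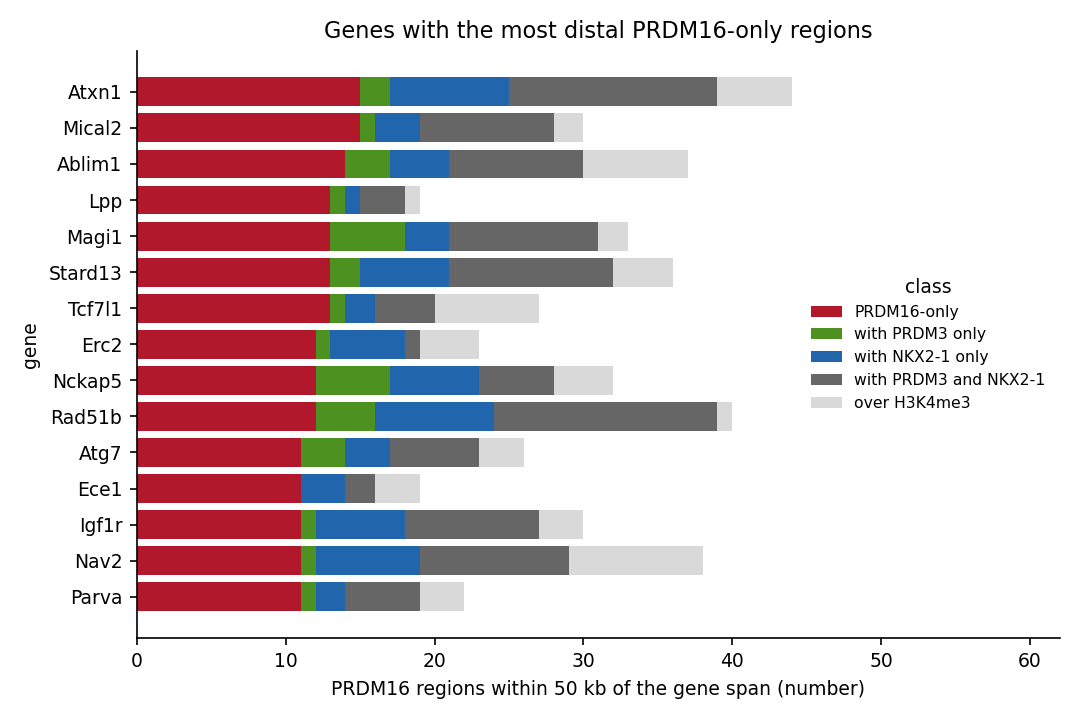
Number of PRDM16 regions of each class within 50 kb of the span of the 15 genes with the most distal PRDM16-only regions. Bars are stacked counts, with the members (red) at the left. The members number 11 to 15 per gene, and make up 13 of 19 regions at Lpp and 15 of 44 at Atxn1.

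Per 100 kb of gene and flanks, genes of the Hoxd and Hoxa clusters led among genes with 5 or more members. The flanks of 50 kb make up most of the window of such short genes. Hox genes encode homeodomain factors of body patterning, and they stand so close together that neighbours share the same members. Hoxd9 had 8.79 members per 100 kb, Hoxd11 8.38, Hoxd10 8.12, Hoxa13 7.84, Hoxd8 7.74, Hoxa11 7.71, Hoxd4 7.46 and Hoxa10 7.30. The 9 members within 50 kb of Hoxd9 had fold enrichments of 2.10 to 5.45 with the rabbit antibody and 3.30 to 6.30 with the sheep antibody, and 2 of the 9 reached a q under 0.05 in both libraries. Near Hoxa13 the 8 members had 2.15 to 7.70 and 2.80 to 5.45. The strongest there with the rabbit antibody were chr6:52211556-52211870, with 7.70 and 3.50, and chr6:52221408-52222059, with 7.68 and 3.77. The other 2 genes of this ranking were Tnip3, an NF-kappaB inhibitor gene, with 6.96, and Psors1c2, with 6.90.

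Taking each Hox cluster from its first to its last gene, members were 6 of 9 PRDM16 regions in Hoxa, 4 of 6 in Hoxb, 3 of 6 in Hoxc and 8 of 12 in Hoxd. Members were 21.5% of all PRDM16 regions and 36.1% of those outside H3K4me3. The second share is the nearer comparison, since only 1, 1, 0 and 1 regions of these clusters lay over H3K4me3. Few Hox genes carried H3K4me3 at an end, 2 of 11 in Hoxa, 1 of 10 in Hoxb, 0 of 9 in Hoxc and 0 of 9 in Hoxd. At a q under 0.05 in both libraries the clusters held 2, 1, 1 and 2 members. The clusters were singled out after their values were seen.

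The densest windows of 100 kb held 9 to 11 members. The first was inside Magi1 (chr6:94159921-94250294), where 11 of 18 PRDM16 regions were members, with fold enrichments of 2.15 to 5.73 and 2.55 to 6.23. Windows with 10 members were at Ece1 and Eif4g3 (of 15 regions), Tnip3 (of 16), Atg7 and Vgll4 (of 18) and Mical2 (of 19). Another, chr14:76667607-76765371, held 10 members of 15 regions and no protein-coding gene. The window at the Hoxd cluster, chr2:74653857-74733588, ranked 7 in this order, with 9 members of 12 regions. In the Tnip3 window some neighbouring members shared a peak. Outside that window, but inside the gene, the member chr6:65622912-65623856 was 945 bases long and had 5.60 and 10.1 with summits 92 bases apart.

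Members also lay near the genes of the profiled factors. Nkx2-1 had 1 member among 11 PRDM16 regions, chr12:56487063-56487215, which lay 44719 bases from the gene with 3.58 and 4.74. Mecom had 7 of 33, all inside the gene, with 2.10 to 3.58 and 2.19 to 4.67. Prdm16 had 3 of 28, all inside the gene, and both summits lay in the stretch in all 3. Of these chr4:154626262-154626672 was the highest, with 3.94 and 6.22. A q under 0.05 in both libraries was reached by 1 member each at Nkx2-1, Mecom and Prdm16. The PRDM family as a whole had a member at 10 of 15 genes, with 3 at Prdm11 and none at Prdm12 or Prdm13.

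Gene lists are read against the 40.5% of all protein-coding genes that had a member. The share was above it in 17 of 24 lists, which include housekeeping genes, and the lists' genes differ in length and in how many PRDM16 regions of any class they have. No list was tested, and since the lists were chosen with earlier results known, nothing is called particular to any of them. The plot of list shares gives all 24 with their intervals.

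**Figure D5:**
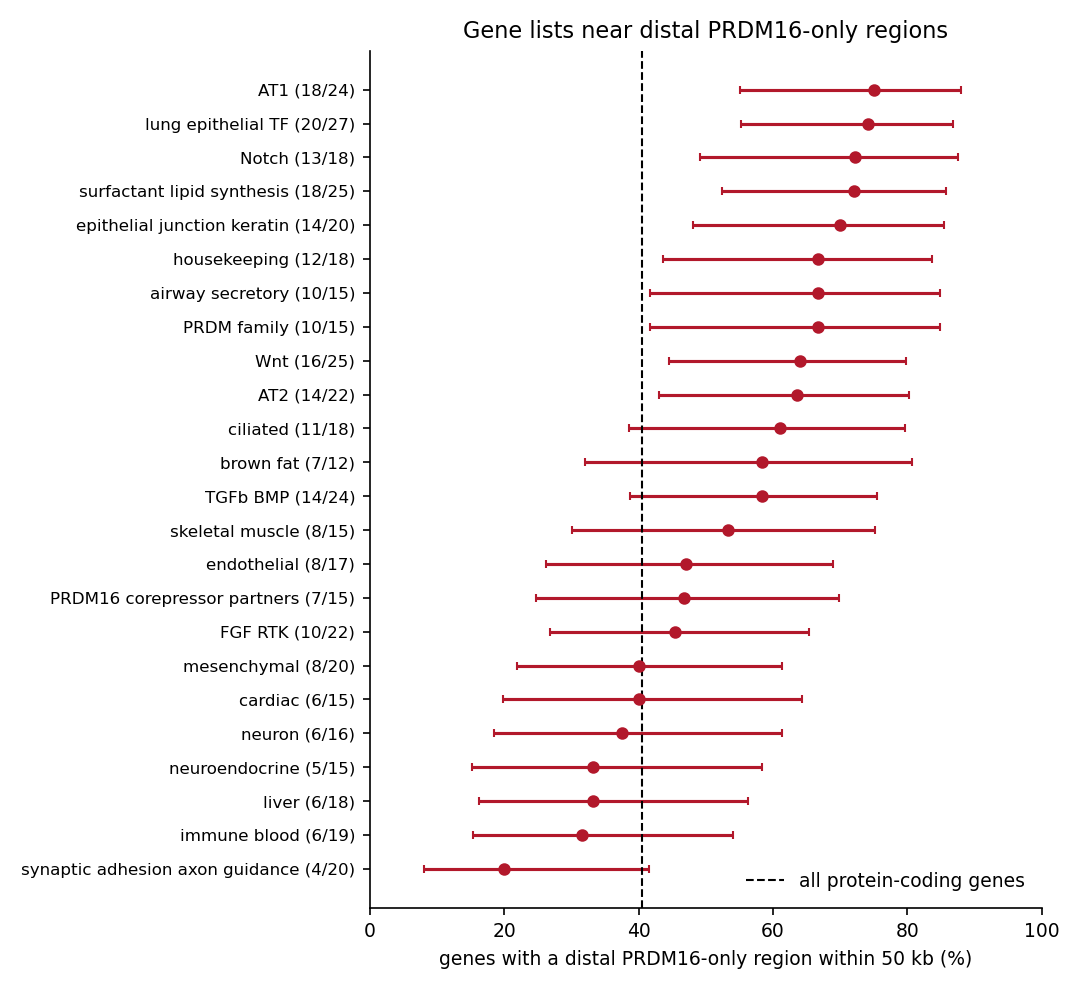
Percentage of each list's genes with a distal PRDM16-only region within 50 kb of the gene span, with Wilson 95% intervals over genes and, in brackets, genes with a region of genes matched. The dashed line is the 40.5% of all protein-coding genes. AT1 genes lie highest (18 of 24 genes) and synaptic adhesion and axon guidance genes lowest (4 of 20), and housekeeping genes lie at 66.7%.

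Alveolar genes had members in most cases. Of AT1 genes 18 of 24 had one (75%, 55.1% to 88.0%), with a median of 1.5 per gene, against 0 over all genes. Lmo7, which encodes a junction-associated LIM protein, had 6 members, Rtkn2, an AT1 marker gene, had 5 and Clic5, a chloride intracellular channel gene, had 4. A q under 0.05 in both libraries was reached by 0 of the 6, 2 of the 5 and 1 of the 4. At Clic5 the member chr17:44287971-44288650, 7801 bases from the gene, had 7.17 and 9.35 with summits 48 bases apart. Another there, chr17:44152660-44152950, had 10.9 with the rabbit and 2.37 with the sheep antibody, with summits 1068 bases apart. Ager and Aqp5, both AT1 marker genes, had no member among their 11 and 6 PRDM16 regions.

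Of AT2 genes 14 of 22 had a member (63.6%, 43.0% to 80.3%). Lpcat1, which encodes the acyltransferase of surfactant phosphatidylcholine remodelling, had 5, all outside the gene, and 3 of the 5 reached a q under 0.05 in both libraries. Of these chr13:73432588-73433165 had 9.60 and 4.74 with summits 24 bases apart, 34065 bases from the gene. Chil1 and the cathepsin H gene Ctsh had 4 each, of which 0 and 2 reached a q under 0.05 in both libraries. The Ctsh member chr9:90048027-90048462 had 3.77 and 5.44 with summits 3 bases apart, whereas chr9:90037392-90037549 had 2.15 and 12.7 with summits 1287 bases apart. Abca3, the lamellar body lipid transporter gene, and Cxcl15 had none. Surfactant lipid synthesis genes had a member in 18 of 25 cases (72.0%), with 6 at Gpam, which encodes a glycerol-3-phosphate acyltransferase, and 4 at Acaca, the acetyl-CoA carboxylase gene. Of these, 3 at Gpam and 0 at Acaca reached a q under 0.05 in both libraries. Acly, the ATP-citrate lyase gene, and Chpt1 had no member.

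Of lung epithelial transcription factor genes 20 of 27 had a member (74.1%, 55.3% to 86.8%), and 13 had one at a q under 0.05 in both libraries, where 17.4% of all genes did. Tead1, a Hippo pathway effector gene, had 9 among 39 PRDM16 regions, with 2.56 to 4.08 and 2.37 to 6.56. Foxp1 and Nfia had 6 each, and Cebpd and Elf3 had none. A q under 0.05 in both libraries was reached by 4 members at Tead1, 1 at Foxp1 and 0 at Nfia. Junction and keratin genes had a member in 14 of 20 cases (70.0%). Krt8, Krt18 and Cldn4 had 6 each, and Krt8 and Krt18, which are neighbours, shared theirs. None of the 6 members at Krt8 had both summits in the stretch, and 5 had an excluding peak under a flank. Dsp and Epcam had no member.

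The airway secretory and ciliated lists were above the share of all genes as well. Of airway secretory genes 10 of 15 had a member (66.7%), with 5 at Lypd2, 2 at the lactoferrin gene Ltf and none at Aldh1a1 or Bpifa1. The Lypd2 members ran from 3.50 to 11.8 with the rabbit and from 2.37 to 5.38 with the sheep antibody, and 4 of 5 reached a q under 0.05 in both. Of ciliated cell genes 11 of 18 had one (61.1%), with 3 at Tppp3, 2 each at Ccdc40 and Cfap43 and none at Ccno or Dnah5. Neuroendocrine genes had one in 5 of 15 cases (33.3%). Among them Ddc, the aromatic amino acid decarboxylase gene, had 9 of 25 regions, 7 inside the gene, while Calca and Chga had none. This list lay above the share of all genes by the nearest gene end only and at a q under 0.05 in both libraries (4 of 15 genes).

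Of Notch pathway genes 13 of 18 had a member (72.2%, 49.1% to 87.5%), with 5 at the coactivator gene Maml2, 4 at Maml3, 4 at the receptor gene Notch2 and none at Hey2 or the ligand gene Jag1. Of Wnt pathway genes 16 of 25 had one (64.0%), led by Tcf7l1 with 13 and the ligand genes Wnt11 and Wnt3a with 5 each, and the receptor genes Fzd1 and Fzd3 had none. Of TGF-beta and BMP genes 14 of 24 had one (58.3%), with 6 each at Smad3 and the inhibitory Smad6, 5 at the ligand gene Tgfb2 and none at Bmp2 or Bmp4. The Smad3 members had 3.07 to 4.30 and 2.34 to 4.31, and 4 of 6 reached a q under 0.05 in both. Of FGF and receptor tyrosine kinase genes 10 of 22 had one (45.5%). Fgfr2, the receptor of lung branching, had 8 of 28 regions, with 2.10 to 4.30 and 2.10 to 4.85, Met had 5 and Fgfr3 had 3. Of these, 1 at Fgfr2, 3 at Met and 0 at Fgfr3 reached a q under 0.05 in both libraries. Dusp6 and Erbb2 had no member. At a q under 0.05 in both libraries this list turned, with a member at 3 of 22 genes (13.6%), under the 17.4% of all genes.

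Genes tied to PRDM16 in other tissues had members as well. Of brown fat genes 7 of 12 had one (58.3%, 32.0% to 80.7%), with 4 at Zfp516, 2 each at the beta-adrenergic receptor gene Adrb3 and at Cidea, and none at Cox7a1 or Cox8b. Of genes of PRDM16 corepressors and partners 7 of 15 had one (46.7%), with 3 each at Cebpb and Skil, 2 at Hdac3 and none at Ctbp1 or Ehmt2. Housekeeping genes, listed as a comparison, had one in 12 of 18 cases (66.7%, 43.7% to 83.7%), with 3 each at Eef2 and Ywhaz, 2 at B2m and none at Eef1a1.

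Lists of other cell types lay on both sides of the share of all genes. A member was near 8 of 15 skeletal muscle genes (53.3%), with 4 at Tnnt3, 3 each at Myh8 and Pax7 and none at Acta1 or Ckm. It was near 8 of 17 endothelial genes (47.1%), with 3 at Erg, 2 each at Eng and Pecam1 and none at Aplnr or Cdh5. Mesenchymal genes had one in 8 of 20 cases, with 4 at Acta2, 3 at Col1a1, 2 at Pdgfra and none at Col1a2 or Col3a1. Cardiac genes had one in 6 of 15 cases, with 4 at Tnnt2, 2 each at Myh6 and Myh7 and none at Actn2 or Gata4. The mesenchymal and cardiac lists, just under 40.5%, lay above the share of all genes when genes were linked by the nearest end only, and also when members had a q under 0.05 in both libraries (4 of 20 and 3 of 15 genes, beside 17.4% of all genes).

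The remaining lists were below 40.5%. Neuronal genes had a member in 6 of 16 cases (37.5%). All 5 PRDM16 regions within 50 kb of Gad1, a GABA synthesis gene, were members, with 2.15 to 7.68 and 2.34 to 4.67. Rbfox3 had 3 and Grin2b 2, and Elavl3 and Elavl4 had none. The neuronal list also lay above the share of all genes by the nearest end only and at a q under 0.05 in both libraries (4 of 16 genes). Liver genes had one in 6 of 18 cases (33.3%), with 2 each at Apob, Fgb and G6pc and none at Afp or Ahsg. Immune and blood genes had one in 6 of 19 cases (31.6%), with 2 at Cd14, 1 each at Adgre1 and Cd3e and none at Csf1r. Synaptic adhesion and axon guidance genes, whose median span of 1021 kb was the longest of the lists, had one in 4 of 20 cases (interval 8.07% to 41.6%). Ntm had 3, Slit3 2 and Cntnap2 1, and Cadm2 and Cntn4 had none.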

How the data were processed

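Peak lists of 9 of 12 samples were analysed. Reads were processed with Trimmomatic, Bowtie2, MACS2 and HOMER on mm10, per the submitters' processing notes, which give no versions or settings here. The use of IgG as a control in calling peaks is not stated in the labels. Each fold enrichment is a ratio deposited by the authors, and the −log10 p and −log10 q are likewise deposited by the authors. The score deposited by the authors was not used beyond checking its range. The factor lists reach down to a −log10 p of about 2, so they hold many peaks of low confidence.

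Stretches covered in both PRDM16 lists by at least 20 bases were intersected with the other lists, where 1 shared base excluded a stretch. Each region took the fold enrichment, q and summit of its PRDM16 peaks. Genes were protein-coding genes in RefSeq on GRCm38.p6, which is the mm10 assembly. A gene was linked when its span came within 50 kb of a region, and H3K4me3 at an end meant a peak within 1 kb of either end in at least 2 libraries. The table gives no strand or exons. Of 467 entries (459 genes) in 24 lists, 455 were matched on chromosomes 1 to 19, 11 were on X and Dnai2 was not matched. No genome sequence was used, so sequence is given for promoter windows only.

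The rule chose the members from these lists and regions are not replicates, so no test was run. Wilson 95% intervals cover counting error only. The members, lists and motifs were chosen with earlier results of these data known. Named are the 12 members best ranked over both libraries, the 15 genes with the most members, the 10 with the most per 100 kb, up to 3 genes with the most members and 2 without any in each list, the profiled factors' genes and the 3 best promoter members; a few genes that this rule names are not reported here. The highest members of each library, Hox clusters and densest windows were added after values were seen. The interval steps were checked on simulated data. Alternatives were stricter peaks, stricter exclusion, other links and leaving out each library. Python 3.11.15, numpy 2.4.6, pandas 2.3.3 and matplotlib 3.10.9 were used.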

Additional observations from a re-analysis of the deposited data

Results flagged for a closer look

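Chromosomes X and Y were outside the rule, and signal was found there. On chromosome X, 143 of 707 PRDM16 regions met the same criteria as the members, and on chromosome Y 1 of 11 did. The share on X was near the 21.5% of chromosomes 1 to 19 (8324 of 38668), so nothing is read from these counts. No control library was set beside these counts, and 3 counts would be the limit for a count of 0. With both chromosomes added there were 8468 regions in place of 8324.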

How the results depend on the processing

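The number of members rests on the peak threshold and on both antibodies. With PRDM16 peaks at a q under 0.05 there were 2422 regions (mean of library medians 4.22, summit distance 168 bases, 3599 genes), and with a −log10 q of 5 or more there were 76 (6.34, 72.0 bases, 133 genes), with 100% at a q under 0.05 in both libraries by construction. The share at a q under 0.05 in both libraries and the summit distance were 34.1% and 172 bases with excluding factor peaks at a q under 0.05 (11194 regions), 30.8% and 159 bases with stretches of at least 100 bases, 28.0% and 155 bases with no excluding peak within 500 bases (5833 regions), and 27.4% and 148 bases with whole peaks free of excluding peaks. In alternatives chosen after seeing the data, exclusion by NKX2-1 replicate 1 alone of the NKX2-1 libraries gave 30.2% (9168 regions), and both summits inside the stretch gave 3658 regions, 35.6%, 72.0 bases and 5124 genes. Genes numbered 4340 within 10 kb, 4033 by the nearest end only and 11610 within 100 kb. Leaving out each library gave 8328 to 64438 regions, a mean of library medians of 2.80 to 3.52, a share of 29.1% to 36.0%, a distance of 175 to 180 bases and 8373 to 19172 genes. Without PRDM16 replicate 1 there were 39201 regions and without replicate 2 64438, each from 1 library, where the share and the distance could not be computed. Without NKX2-1 replicate 1 there were 12270. Of the 24 lists, 17 were above the share of all genes, 21 by the nearest end only and 20 at a q under 0.05, and the neuroendocrine, mesenchymal, neuronal and cardiac lists changed side in both, as did the FGF and receptor tyrosine kinase list at a q under 0.05. No paired analysis was possible because the results come from no test between groups. Depth is unknown, so what weaker PRDM3 or NKX2-1 signal the members hold cannot be given.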
